A study of Drosophila melanogaster with 16 samples.

Results

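Testes of the Os+bgcn genotype were compared with wild-type testes of Drosophila melanogaster, using 11 of the 16 arrays of the study: 6 of Os+bgcn testes and 5 of wild-type testes, chosen by the sample titles. Each array measured RNA of whole adult testes, 150 per sample in both groups. The Os+bgcn testes lack bgcn function and carry Os in addition, and the wild-type testes carry neither change. The other 5 arrays, of bgcn testes without Os and with 750 testes per sample, entered the shared error estimate and are set beside the others where a result turns on them. Between both mutants the number of testes per sample and Os cannot be told apart. Neither the means and cells of Os supply nor the bgcn allele are given in the sources used here. Replicates are biological per the labels. For the wild-type samples the label on extraction names bgcn testes, while title, source and description name wild type; the sperm genes described below were bright on these 5 arrays and dim on the others.

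A testis holds every stage of sperm formation in order along its length. At the tip, a cluster of somatic hub cells secretes upd1, the ligand of the JAK-STAT pathway that an older nomenclature calls outstretched (os), and keeps the surrounding germline stem cells and cyst stem cells in place. Daughters of a germline stem cell divide as spermatogonia inside a pair of cyst cells until bam and bgcn end these divisions, after which they grow as spermatocytes, pass meiosis and elongate as spermatids. Germ cells without bgcn go on dividing as spermatogonia, and ectopic upd1 is known to enlarge the populations of germline and cyst stem cells. The comparison therefore sets a testis of early cells beside one with all stages.

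The genes that the genotypes name were read first. upd1 (CG5993), on the X chromosome, had signals of 5.1, 6.9, 18.5, 9.4 and 18 on the wild-type arrays, and from 255 to 637, with a median of 363, on the Os+bgcn arrays. No wild-type array came near the lowest Os+bgcn array, and the change was 3.75 ± 0.21 on the log2 scale (SE), with a limma adjusted p of 3.0e-12, or at least 8.88-fold higher. bgcn (CG30170), on arm 2R, went from 104 ± 34.6 (SD, n = 5) in wild type to 84.8 ± 32.7 (n = 6) in Os+bgcn, and the groups overlapped, with a difference of -0.27 ± 0.25 and an adjusted p of 0.34. The position of either probe set relative to the mutation or the added Os was not looked at. The upd1 values thus check the Os label, and the bgcn label has no such check. Correlations of log2 values, taken over tested probe sets that are no independent replicates, were 0.932 to 0.944 among wild-type arrays and 0.919 to 0.958 among Os+bgcn arrays, but 0.143 to 0.199 between them. Signals are intensities on a linear scale that the authors had scaled to a common trimmed mean, all fold changes are differences of log2(signal + 18.8), which understates those of dim transcripts, and a probe set was tested only if its signal passed 42.9 on at least 5 arrays. Where every array of a group lay under that floor of 42.9, the fitted size depends on the added constant, and for the main genes a bound is given in addition as at least N-fold, the mean log2 signal of the bright group against the floor. The number of arrays limits the precision of every value.

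Most of the measured transcriptome differed. By limma, 7446 of the 10422 tested probe sets (71.4%) passed an adjusted p of 0.05, 4925 of them higher in Os+bgcn and 2521 lower. Counted by gene, 4040 of 8565 (47.2%) were higher and 2205 (25.7%) lower, and the median over all tested genes was 0.41. The higher genes were more numerous but the lower genes changed further, with medians of 1.42 and -2.21. At least 8-fold, 228 genes (2.66%) were higher and 837 (9.77%) lower, and at least 32-fold 4 were higher and 252 lower. Besides genes described below, the largest increases were those of Kots at 4.99 ± 0.15, emb, the nuclear export receptor, at 4.74 ± 0.23 (3.07 on its other probe set), eIF3f1, a translation initiation factor, at 4.38 ± 0.30, Trf5 at 4.34 ± 0.16 and Pdcd4 at 4.31 ± 0.21. The largest decreases included Mst98Cb of the sperm tail at -8.45 ± 0.21, and ocn and janB, both of the janus family of sperm proteins, at -8.19 ± 0.14 and -7.36 ± 0.21.

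**Figure D1:**
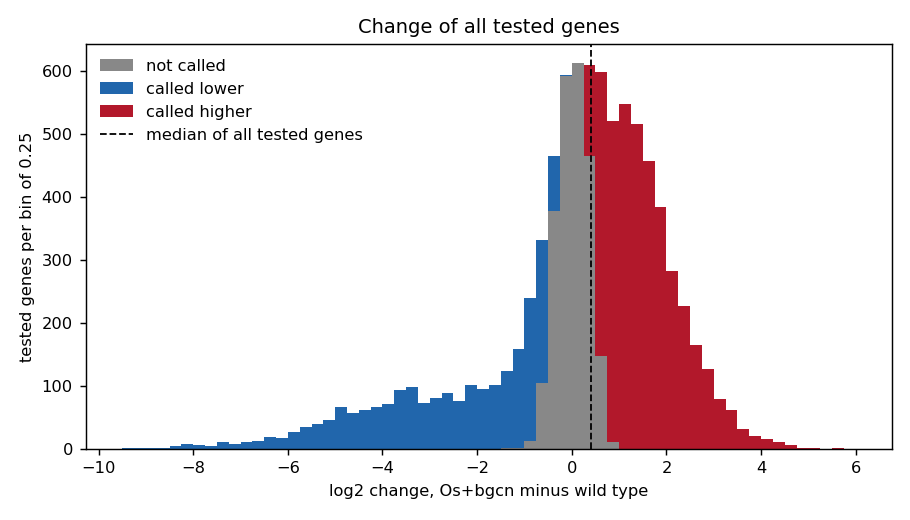
Number of tested genes (vertical axis) by log2 change between Os+bgcn and wild-type testes (horizontal axis, bins of 0.25), with called genes in colour and genes that were not called in grey. The called higher genes form a tall peak at small changes, and the called lower genes a long tail that passes -9. With arrays centred on ribosomal protein genes the whole distribution lies lower, at a median of -1.42 over probe sets.

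These directions hold on the authors' scale. Ribosomal protein genes were themselves higher in Os+bgcn, and with arrays centred on them the median of all tested probe sets moved from 0.43 to -1.42, so that 8.03% of the changed probe sets were higher in place of 66.1%. Centring on the array medians moved it to 0.15, with 56.7% higher. Each list below is therefore read against the median of all genes and against the share of all genes called, and where its median changes sign with ribosomal centring the value is given. A gene that rose by less than this shift lies below 0 on that scale. The 31 lists name 580 genes with a probe set, of which 537 were tested and 43 were too dim, and counts below are of tested members. A member under the floor on every wild-type array passed the filter only through mutant arrays, where it is brighter. Counts and medians of higher genes in lists with such members are a description. In whole testes, more cells of a type and more RNA per cell cannot be told apart.

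The lower genes carried much of the wild-type RNA signal. The 837 genes at least 8-fold lower in Os+bgcn, with 1 probe set each, held 39.4 to 40.8% of the summed signal of all 13966 probe sets on the wild-type arrays, and 0.644 to 0.801% on the Os+bgcn arrays. Their median signal was 758 in wild type and 15.6 in Os+bgcn, and 708 of them (84.6%) had a mean under the floor of 42.9 in Os+bgcn. The 228 genes at least 8-fold higher held 0.393 to 0.448% in wild type and 6.38 to 7.34% in Os+bgcn. Genes that bear only a CG or CR number made up 40% of all tested genes, 70.4% of those at least 8-fold lower and 17.1% of those at least 8-fold higher. Beyond the number of genes that changed, Os+bgcn testes gave more transcripts above the floor, 8513 ± 132 probe sets (SD, n = 6) against 8032 ± 90.2 (n = 5), in an exact two-sided permutation test with p = 0.0043, the smallest this design allows. The size of this difference of 481 depends on the floor: it was 213 (exact p = 0.017) with a floor at the 30th percentile of all values and 820 at the 60th.

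Genes of germline stem cells and spermatogonia were higher in Os+bgcn. Of 17 early germline and transit-amplification genes tested, 16 (94.1%, against 47.2% of all genes) were higher and none lower, at a median of 2.61. Under ribosomal centring 9 were called higher and 3 lower, at a median of 0.77. For 4 of the 17, every wild-type array lay under the floor. nanos (CG5637), on arm 3R, the translational repressor that keeps germline stem cells, had the largest increase of all tested genes named beyond a CG or CR number. It gave 80.4, 56.5, 44.3, 66.5 and 22.4 on the wild-type arrays and from 2546 to 4818, with a median of 3541, on the Os+bgcn arrays. Every Os+bgcn array was far above every wild-type array, a change of 5.69 ± 0.21 (limma adjusted p = 5.8e-15), or 51.5-fold. The other probe set of nanos gave 3.50. zpg, the innexin of germ cell gap junctions, went from 46.2 ± 23.5 (SD, n = 5) in wild type to 1730 ± 150 (n = 6) in Os+bgcn, a change of 4.81 ± 0.18 (adjusted p = 6.4e-15), and vas, the helicase of germ granules, from 48.9 ± 12.7 (SD, n = 5) in wild type to 1230 ± 180 (n = 6) in Os+bgcn, a change of 4.22 ± 0.13 (adjusted p = 3.4e-16). bam, the partner of bgcn in ending the spermatogonial divisions, went from 27.3 ± 17.6 (SD, n = 5) in wild type to 436 ± 56.1 (n = 6) in Os+bgcn (3.37 ± 0.23, adjusted p = 5.6e-11). bel, an RNA helicase, differed by 0.07 and was not called.

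The piRNA pathway, which silences transposons in germ cells, was higher almost throughout. Of 27 genes tested 24 were higher and 1 lower, at a median of 2.42. Ribosomal centring left 12 called higher and 4 lower, at a median of 0.57. Under the floor on every wild-type array were 7 of the 27. piwi (CG6122), on arm 2L, the nuclear Argonaute protein of the pathway, gave 38.9, 15.3, 5.5, 26.4 and 21 in wild type and from 1143 to 1545, with a median of 1386, in Os+bgcn. The arrays did not overlap, and the change was 5.15 ± 0.18 (limma adjusted p = 2.1e-15), at least 31.6-fold higher. aub, its cytoplasmic relative that slices transposon transcripts, went from 52.4 ± 36.7 (SD, n = 5) in wild type to 1380 ± 268 (n = 6) in Os+bgcn (4.44 ± 0.27, adjusted p = 6.6e-12). piwi was also higher in Os+bgcn than in bgcn, by 2.50 ± 0.18 (adjusted p = 9.4e-09), and aub by 1.11 ± 0.27 (adjusted p = 0.0052), while bgcn testes without Os stood between both in each gene. papi, a Tudor protein that acts in piRNA trimming, was the member lower on the authors' scale, at -1.09 ± 0.18 (adjusted p = 2.4e-05).

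Genes of dividing cells followed. Of 24 replication genes tested 23 were higher and none lower, at a median of 2.70, and 7 of the 24 lay under the floor on every wild-type array. With ribosomal centring 13 were called higher and 4 lower, at a median of 0.86. Mcm3 (CG4206), on the X chromosome, a subunit of the replicative helicase, gave 7.7, 9.5, 32.9, 43.1 and 7.2 in wild type and from 548 to 638, with a median of 576, in Os+bgcn, without overlap, a change of 4.05 ± 0.23 (limma adjusted p = 2.4e-12). dpa, which encodes the Mcm4 subunit, changed by 3.92 ± 0.21 and RnrL, the large subunit of ribonucleotide reductase, by 3.82 ± 0.14. Of 32 mitotic genes 26 were higher and 1 lower, at a median of 1.55, or -0.29 with ribosomal centring. Every wild-type array lay under the floor for 5 of the 32. The condensin genes glu and SMC2 changed by 4.18 ± 0.16 and 3.93 ± 0.13, and CycE, the cyclin of S phase entry, by 3.85 ± 0.16. Klp10A, a kinesin that depolymerises microtubules, was the lower member at -1.48 ± 0.32 (adjusted p = 0.00038).

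Transcripts of genes for ribosome production were higher as well. Of 30 nucleolar and ribosome biogenesis genes tested 29 were higher and none lower, at a median of 2.39. Ribosomal centring left 11 called higher and 5 lower, at a median of 0.55. In wild type 9 of the 30 lay under the floor on every array. Nopp140, a nucleolar phosphoprotein, went from 53.9 ± 12.9 (SD, n = 5) in wild type to 1360 ± 107 (n = 6) in Os+bgcn (4.26 ± 0.14, adjusted p = 7.1e-16), and Nop56, of the box C/D particle that methylates ribosomal RNA, changed by 3.86 ± 0.11. mod, a nucleolar DNA-binding protein among the genes that rose most, changed by 4.68 ± 0.14. Of 25 cytosolic ribosomal protein genes tested 23 were higher and none lower, at a median of 1.63, which ribosomal centring sets near 0 by construction (-0.21). RpL3 changed most, from 1070 ± 42.2 (SD, n = 5) in wild type to 10100 ± 2190 (n = 6) in Os+bgcn (3.18 ± 0.22, adjusted p = 7.7e-11). All 23 Polycomb and chromatin remodelling genes tested were higher, at a median of 1.98, with kis, a remodelling ATPase, at 4.29 ± 0.18, and esc, a subunit of the Polycomb complex PRC2, at 3.60 ± 0.16. Under the floor on every wild-type array were 9 of the 23, which passed the filter only through mutant arrays, so this count is a description. The other probe set of kis gave 1.33. Of the 23 genes, ribosomal centring left 9 called higher and 4 lower, at a median of 0.14.

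**Figure D2:**
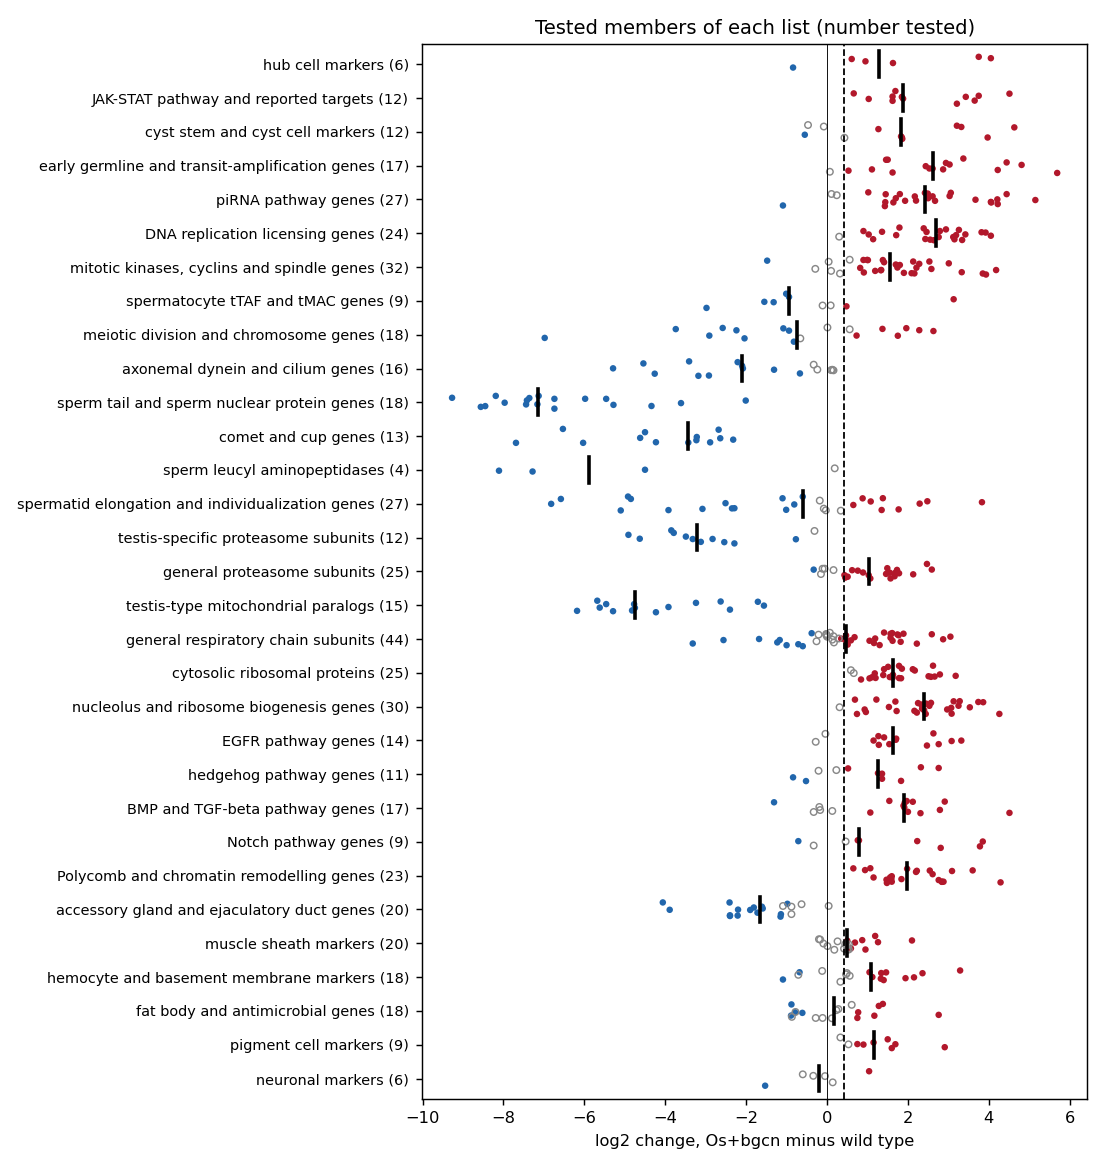
Log2 change between Os+bgcn and wild-type testes (horizontal axis) of every tested member of each gene list (rows), with filled points for called genes, open points for genes not called, a bar at the list median and a dashed line at the median of all tested genes, 0.41. Early germline, piRNA, replication and nucleolar genes lie mostly above the dashed line, and sperm tail, comet and cup genes lie below -2. With ribosomal centring every point lies lower, and the medians of 14 lists that stand right of 0 here fall left of it or to within 0.05 of it.

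Genes of the somatic niche were described by the hub, JAK-STAT and cyst lists. Of 6 hub cell markers tested 5 were higher than in wild type and 1 lower, at a median of 1.29, or -0.55 with ribosomal centring. One of the 5 is upd1, which the genotype names, and the median was 0.95 without it. Every wild-type array lay under the floor for 2 of the 6, so the hub count is a description. esg (CG3758), on arm 2L, a Snail-family repressor that hub and cyst stem cells need, gave 28.8, 33.5, 30.5, 28.4 and 43.5 in wild type and from 719 to 990.3, with a median of 808, in Os+bgcn, with no overlap, a change of 4.05 ± 0.16 (limma adjusted p = 9.9e-15). Against bgcn testes esg changed by 4.31 ± 0.16 (adjusted p = 8.4e-13), and its level in bgcn was 24.7 ± 9.23 (SD, n = 5), no higher than in wild type. CadN, N-cadherin of the hub, changed less, by 0.61 ± 0.24 (adjusted p = 0.027). This turned to -1.23 with ribosomal centring, and without wild-type array 1 it was 0.49 and not called (adjusted p = 0.085). It was not called with quantile normalization (adjusted p = 0.17) or median centring (adjusted p = 0.23) either. hh, the hedgehog ligand made by hub cells, went the other way, from 74.3 ± 21.2 (SD, n = 5) in wild type to 32.5 ± 7.2 (n = 6) in Os+bgcn (-0.84 ± 0.20, adjusted p = 0.00087). Fas3, another hub marker, was not analysed here.

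All 12 JAK-STAT genes and reported targets tested were higher, at a median of 1.87 that moved to 0.02 with ribosomal centring. Every wild-type array lay under the floor for 3 of the 12. The gene magu was put on this list with results of these data known, and upd1, named by the genotype, is 1 of the 12, without which the median was 1.85. magu (CG2264), on arm 2R, a secreted modulator of BMP signalling, gave 27.6, 12.3, 7.8, 13 and 37.5 in wild type and from 614 to 1328, with a median of 781, in Os+bgcn. The lowest Os+bgcn array was well above the highest wild-type array, a change of 4.51 ± 0.28 (limma adjusted p = 1.4e-11), at least 19.1-fold higher. Stat92E, the transcription factor of the pathway, went from 54.5 ± 17.4 (SD, n = 5) in wild type to 892 ± 154 (n = 6) in Os+bgcn (3.65 ± 0.22, adjusted p = 9.2e-12). Its other probe set gave 2.44. Its level in bgcn was 572 ± 283 (SD, n = 5), and Os+bgcn exceeded bgcn by 0.72 ± 0.22 (adjusted p = 0.028, and 0.25 on the other probe set, at 0.42). The change of dome, the receptor, depended on the probe set: it was 1.62 ± 0.13 on one and -0.14 (adjusted p = 0.61) on the other. The list as a whole lay 1.04 above bgcn at its median, with 11 of 12 members called higher there against 11.9% of all genes.

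Markers of the cyst lineage did not all go one way. Of 12 tested 8 (66.7%, against 47.2% of all genes) were higher and 1 lower, at a median of 1.84 that fell to about 0 with ribosomal centring. For 2 of the 12, every wild-type array lay under the floor. Nrt (CG9704), on arm 3L, the neurotactin adhesion protein, gave 64.2, 15, 17.6, 20.4 and 83.6 in wild type and from 1109.5 to 1654, with a median of 1229, in Os+bgcn, a change of 4.63 ± 0.24 (limma adjusted p = 9.5e-13) without overlap, and the other probe set gave 1.85. The markers of cyst stem cells and their early daughters were higher, zfh1 at 3.21 ± 0.25 (adjusted p = 5.6e-10), chinmo at 1.85 ± 0.17 (adjusted p = 7.8e-09) and tj at 1.83 ± 0.35 (adjusted p = 9.4e-05). For tj the arrays of both groups overlapped, and the direction of tj turned with ribosomal centring, to -0.01 (adjusted p = 0.98). On that scale chinmo was not called either, at 0.01 (adjusted p = 0.98). Of the markers of later cyst cells, eya differed by 0.43 ± 0.20 (adjusted p = 0.058) and its partner so changed by -0.55 ± 0.20 (adjusted p = 0.019). Both rest on single arrays: eya was called at 0.58 (adjusted p = 0.0067) without Os+bgcn array 6 and at 0.55 (adjusted p = 0.022) without wild-type array 1, and so was not called at -0.44 (adjusted p = 0.068) without wild-type array 4. Against bgcn testes the cyst list had 7 members called higher and 3 lower, where 9.22% of all genes were called lower.

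**Figure D3:**
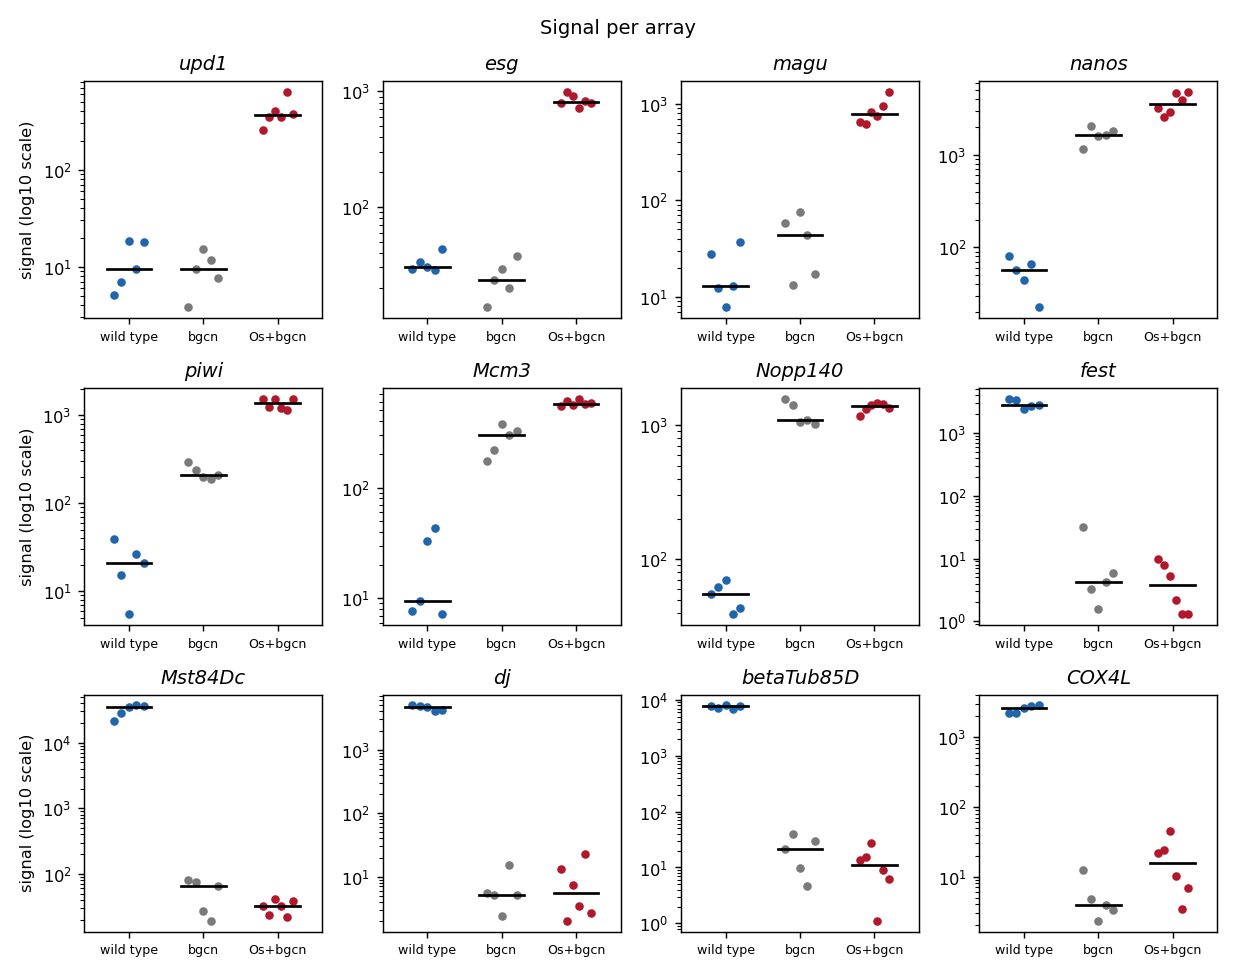
Signal per array (vertical axis, log10 scale) of 12 genes in wild-type (5 arrays), bgcn (5) and Os+bgcn (6) testes, 1 point per array with a bar at the group median. upd1, esg and magu are high on the Os+bgcn arrays alone, nanos, piwi, Mcm3 and Nopp140 are higher on the arrays of both mutants than in wild type, and fest, Mst84Dc, dj, betaTub85D and COX4L are high on the wild-type arrays alone.

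Pathways between germ cells and soma were higher in part. Their counts are to be read against 47.2% of all genes called higher and 25.7% called lower. Under the floor on every wild-type array were 1 of the 14 EGFR and 2 of the 9 Notch genes tested. Of 14 EGFR pathway genes 12 were higher and none lower (median 1.62, and -0.22 with ribosomal centring), led by aop, an ETS repressor, at 3.32 ± 0.20, and spi, the EGF-like ligand made by germ cells, at 3.08 ± 0.17. Of 17 BMP and TGF-beta genes 12 were higher and 1 lower (median 1.91, and 0.07 with ribosomal centring), and 4 of the 17 lay under the floor on every wild-type array. On the ribosomal scale 3 of the 17 were called higher and 5 lower. After magu, put, a type II receptor, changed by 2.91 ± 0.22 and myo, an activin-like ligand, by 2.79 ± 0.27. The member lower on the authors' scale was Smurf, the ubiquitin ligase that removes phosphorylated Mad, at -1.31 ± 0.15 (limma adjusted p = 1.7e-07). Of 11 hedgehog genes 7 (63.6%) were higher and 2 (18.2%) lower (median 1.26, and -0.59 with ribosomal centring). The transducer smo changed by 2.76 ± 0.21 and the co-receptor ihog by 2.32 ± 0.22, opposite to hh itself. For 5 of the 11, every wild-type array lay under the floor. Of 9 Notch genes 6 (66.7%) were higher and 1 (11.1%) lower (median 0.79, and -1.05 with ribosomal centring). Hesr, a Hairy-related repressor, changed by 3.85 ± 0.19, fng, the glycosyltransferase that modifies Notch, by 3.78 ± 0.22, and E(spl)m7-HLH, a target of Notch, by -0.71 ± 0.23.

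The lists of spermatocyte and meiotic genes lay below the median of all genes. Of 9 genes of the spermatocyte transcription machinery tested, which are testis forms of TFIID subunits and of the MuvB complex, 2 were higher and 5 lower, at a median of -0.94. topi, a zinc finger protein of that complex, went from 193 ± 32.4 (SD, n = 5) in wild type to 8.28 ± 5.18 (n = 6) in Os+bgcn (-2.98 ± 0.17, limma adjusted p = 3.5e-12), while the highest change was that of Caf1-55, a histone-binding subunit shared with general complexes, at 3.13 ± 0.18. aly, the central subunit, changed by -0.94 ± 0.32 (adjusted p = 0.012). Among the 9 genes, 3 would not have passed the filter on the mutant arrays alone and so had to be lower.

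Of 18 meiotic genes 6 were higher and 9 lower, at a median of -0.74, and 4 of the 18 would not have passed the filter on the mutant arrays alone. Another 3 lay under the floor on every wild-type array. fest (CG9975), on arm 2R, acts in spermatocytes in the control of translation of a meiotic cyclin. It gave 3533, 3349, 2404, 2703 and 2759 in wild type and from 1.3 to 9.9, with a median of 3.8, in Os+bgcn. No Os+bgcn array passed the floor, and the change was -6.98 ± 0.21 (limma adjusted p = 2.7e-16), at least 68.1-fold lower. bol, the RNA-binding protein that starts translation of the meiotic phosphatase twe, fell to 261 ± 35 (SD, n = 6) from 1140 ± 243 (n = 5) (-2.04 ± 0.14, adjusted p = 6.3e-11), and twe changed by -1.08 ± 0.14 (adjusted p = 5.4e-07). The 6 higher members included the cyclin gene CycB at 2.28 ± 0.11, ord, which holds sister chromatids together, at 2.63 ± 0.19 and tef, which pairs autosomes in male meiosis, at 1.96 ± 0.24.

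Genes of the sperm itself were lower. All 18 sperm tail and sperm nuclear protein genes tested were lower, where 25.7% of all genes were, at a median of -7.14, and all 13 comet and cup genes, which are transcribed after meiosis, at a median of -3.43. Of these, 13 of the 18 and 9 of the 13 would not have passed the filter on the mutant arrays alone, so they had to be lower and the counts and medians are a description. Mst84Dc|id]], of a family of cysteine-rich sperm tail proteins, had the largest fitted change of all genes. It gave 21643, 28034, 34762, 37071 and 36634 in wild type and from 22.1 to 41.3, with a median of 32.5, in Os+bgcn, a fitted change of -9.27 ± 0.23 (limma adjusted p = 1.2e-17). All Os+bgcn values lay under the floor, which makes it at least 723-fold lower. Its relatives Mst84Db and Mst84Da changed by -8.56 ± 0.29 and -7.97 ± 0.17. dj, don juan of the sperm tail, gave 4974, 4853, 4661, 4065 and 4159.7 in wild type and from 2.0 to 23.1, with a median of 5.5, in Os+bgcn, a change of -7.42 ± 0.19 (adjusted p = 1.7e-17), at least 106-fold lower. The smallest change of this list was that of ProtB, a protamine-like protein of sperm chromatin, at -2.01 ± 0.21 (adjusted p = 3.6e-08). soti, which helps to set the caspase gradient of individualizing spermatids, led the comet and cup list at -7.69 ± 0.22.

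The remaining sperm lists followed. Of 4 leucyl aminopeptidase genes tested 3 were lower, with S-Lap7 at -8.11 ± 0.25 and S-Lap8 at -7.28 ± 0.27, both proteins of the sperm. Of 16 axonemal dynein and cilium genes 11 were lower (68.8%, against 25.7% of all genes) and none higher, at a median of -2.09, led by the radial spoke genes Rsph3 at -5.29 ± 0.31 and Rsph4a at -4.54 ± 0.16 and by Tektin-C at -4.26 ± 0.17. On the mutant arrays alone 9 of the 16 would not have passed the filter and so had to be lower, which makes this count a description. Of 27 genes of spermatid elongation and individualization 14 were lower and 9 higher, at a median of -0.60. Without the wild-type arrays 6 of the 27 would not have passed the filter, and 2 lay under the floor on every wild-type array. bb8, a mitochondrial glutamate dehydrogenase of spermatids, changed by -6.82 ± 0.17, salto by -6.58 ± 0.20 and Pif1A by -5.10 ± 0.26. The higher members were led by orb, an RNA-binding protein, at 3.83 ± 0.22, Mer, the Merlin protein of the cell cortex, at 2.48 ± 0.22 and ctp, a dynein light chain, at 2.29 ± 0.12. A second probe set of orb went the other way, at -2.41 (adjusted p = 1.5e-08).

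Many proteins of sperm formation have a general form in other cells, encoded by a separate gene, and such pairs were set side by side. Of 27 pairs with both genes tested, the testis gene was lower and the general gene higher, both called, in 22. Of the 27 testis genes, 14 would not have passed the filter on the mutant arrays alone and so had to be lower, which makes this count a description. Medians were -2.86 for the testis genes and 1.68 for the general genes, or -4.70 and -0.16 with ribosomal centring, under which the sign of 16 of the 24 general genes turned. betaTub85D (CG9359), on arm 3R, the beta-tubulin of meiotic spindles and sperm tails, gave 7724, 7298, 7966, 6866 and 7782 in wild type and from 1.1 to 26.9, with a median of 11.2, in Os+bgcn, a change of -7.98 ± 0.22 (limma adjusted p = 7.2e-17), at least 175-fold lower. betaTub56D, the general beta-tubulin, gave 805, 896, 647, 464 and 547 in wild type and from 2061 to 4767, with a median of 3545, in Os+bgcn, a change of 2.34 ± 0.24 (adjusted p = 2.4e-08). In neither gene did the arrays of both groups overlap.

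The proteasome and the respiratory chain held most of the other pairs. Of 12 testis-specific proteasome subunit genes 11 were lower, at a median of -3.22, and of 25 general subunit genes 20 were higher and 1 lower, at a median of 1.03, or -0.82 with ribosomal centring. Prosalpha6T changed by -4.63 ± 0.23 and its general form Prosalpha6 by 1.68 ± 0.21, and Rpt3R by -0.77 ± 0.14 against 2.47 ± 0.24 for Rpt3. All 15 testis-type mitochondrial paralogs tested were lower, at a median of -4.75, and 10 of them would not have passed the filter on the mutant arrays alone. The same holds for 8 of the 12 testis-specific proteasome genes. COX4L, the testis form of cytochrome c oxidase subunit 4, went from 2540 ± 312 (SD, n = 5) in wild type to 18.5 ± 15.4 (n = 6) in Os+bgcn (-6.18 ± 0.23, adjusted p = 3.9e-15), and COX4 from 676 ± 77.9 (SD, n = 5) in wild type to 2120 ± 415 (n = 6) in Os+bgcn (1.61 ± 0.18, adjusted p = 8.1e-08). fzo, the mitofusin that forms the spermatid nebenkern, changed by -3.92 ± 0.20 and Marf, its general form, by 2.54 ± 0.23.

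The general respiratory genes were mixed. Of 44 tested 24 were higher and 9 lower, at a median of 0.46, close to that of all genes, and the median was -1.39 with ribosomal centring. ATPsynbeta and ATPsynC changed by 3.05 ± 0.16 and 2.87 ± 0.16 (0.91 on its other probe set), while COX7C and ND-B8, which are listed here as general subunits, changed by -3.32 ± 0.17 and -2.56 ± 0.22. Glycolysis, chaperones and nuclear transport held pairs of the same kind. Pglym87 changed by -7.11 ± 0.15 against 1.74 ± 0.29 for the phosphoglycerate mutase Pglym78, Hsp60B and Hsp60C by -6.0 ± 0.23 and -6.25 ± 0.13 against 0.57 ± 0.22 for the chaperonin Hsp60A (adjusted p = 0.028, and up to 0.065 without single arrays, among them wild-type array 2), and Ran-like by -5.74 ± 0.22 against 1.03 ± 0.16 for the GTPase Ran. The 5 pairs without opposite calls were Rpt4R with Rpt4, mia with Taf6, tomb with mip120, eIF4G2 with eIF4G1 and ATPsynCF6L with ATPsynCF6. In these pairs Rpt4R, mia, tomb and eIF4G2 were not called, while ATPsynCF6L changed by -5.46 ± 0.20 and ATPsynCF6 differed by 0.16 ± 0.18 (adjusted p = 0.43).

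**Figure D4:**
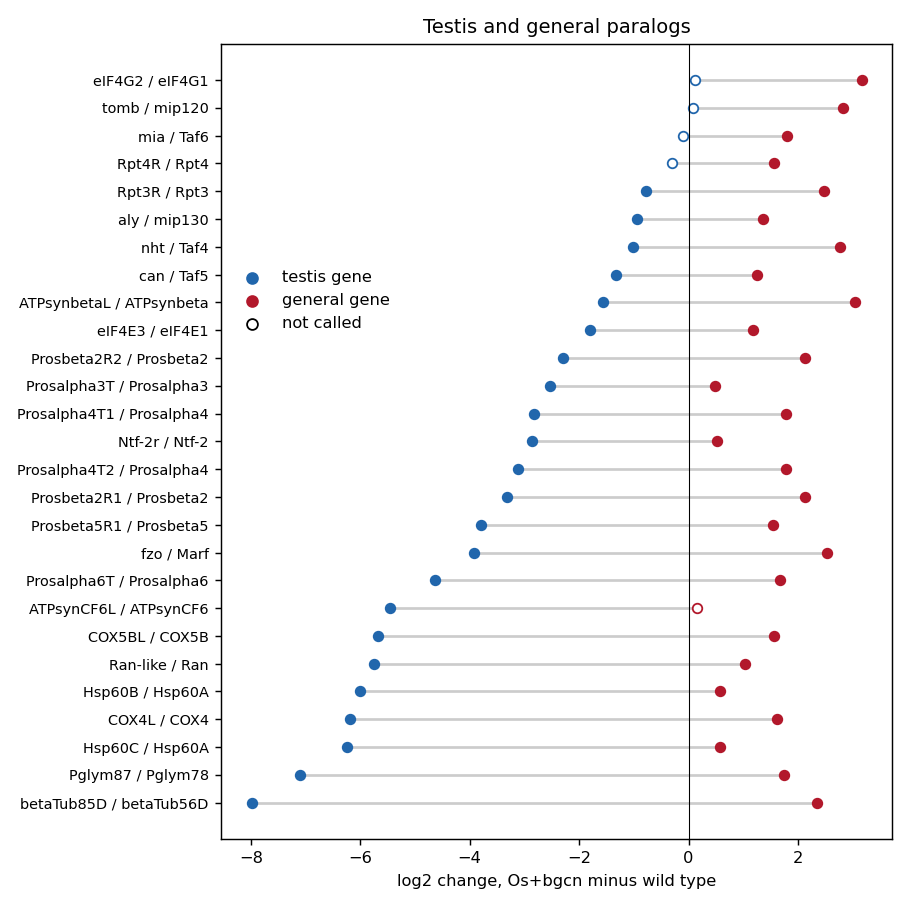
Log2 change between Os+bgcn and wild-type testes (horizontal axis) of the testis gene and of the general gene of 27 paralog pairs (rows), joined by a line, with filled points for called genes and open points for genes not called. In 22 pairs the testis gene is left of 0 and the general gene right of it, both called. Many general genes lie left of 0 with ribosomal centring, where all values are lower.

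Genes of other tissues in the dissected material were checked by their lists. Of 20 accessory gland and ejaculatory duct genes 15 were lower and none higher, at a median of -1.66. Their summed signal per array ran from 8460 to 33800 in wild type and from 685 to 4150 in Os+bgcn. Acp95EF (CG17924), on arm 3R, a peptide of the accessory gland, gave 2776, 4239, 3830.1, 8436 and 4873 in wild type and from 62.2 to 561, with a median of 385, in Os+bgcn, a change of -4.06 ± 0.46 (limma adjusted p = 1.2e-07). Acp36DE changed by -1.59 ± 0.48 (adjusted p = 0.006) and Acp26Aa differed by -1.09 ± 0.50 (adjusted p = 0.058), and was called at -1.35 (adjusted p = 0.021) without Os+bgcn array 2. The part of this tissue in other lower genes was not tested.

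Shares of higher members in the next lists are to be read against 47.2% of all genes. Under the floor on every wild-type array were 4 of the 20 muscle sheath and 1 of the 18 hemocyte and basement membrane genes. The same holds for 1 of the 9 pigment cell and 1 of the 6 neuronal genes. Of 20 muscle sheath genes 8 (40%) were higher and none lower (median 0.50 against 0.41 for all genes, and -1.35 with ribosomal centring), their summed signal being 3750 to 4260 in wild type and 4200 to 6080 in Os+bgcn. Of the defining muscle genes, bt, the projectin, changed by 0.69 ± 0.25 (limma adjusted p = 0.017, and 0.15 with median centring) and Mlc1, a myosin light chain, differed by 0.26 ± 0.26 (adjusted p = 0.4). Of 18 hemocyte and basement membrane genes 10 (55.6%) were higher and 2 lower (median 1.09, and -0.76 with ribosomal centring), their summed signal being 2810 to 3440 in wild type and 5110 to 6820 in Os+bgcn. The higher members included the laminins and other matrix genes, LanA at 3.29 ± 0.18 and LanB2 at 2.36 ± 0.27, while the hemocyte genes Hml and Pxn differed by 0.33 ± 0.25 and 0.49 ± 0.35 and were not called, and NimC1 was under the floor on every array. crq, a scavenger receptor of hemocytes, changed by 1.34 ± 0.21 (limma adjusted p = 9.9e-06) and Nplp2, listed here as a hemocyte gene, by 1.05 ± 0.23 (adjusted p = 0.00045), or -0.50 and -0.79 with ribosomal centring. vkg, a collagen IV chain, was lower on one probe set at -1.09 ± 0.13 and higher on another at 0.96 (adjusted p = 0.00061). Of 18 fat body and antimicrobial genes 6 (33.3%) were higher and 4 lower (median 0.18, and -1.67 with ribosomal centring). The highest was FASN1, a fatty acid synthase, at 2.76 ± 0.12. Other fat body markers did not follow it: Fbp1 changed by -0.89 ± 0.37 (adjusted p = 0.04) and Lsp2 differed by 0.28 ± 0.28 (adjusted p = 0.37). Of 9 pigment cell genes 7 (77.8%) were higher and none lower (median 1.15, and -0.69 with ribosomal centring), and of 6 neuronal genes 1 (16.7%) was higher and 1 lower (median -0.20).

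How far the change from wild type differed between both mutants was read from the bgcn arrays. Os+bgcn minus bgcn is the difference between both mutants' changes from wild type, and of all tested genes 11.9% were higher and 9.22% lower in it, at a median of 0.04. The sperm tail list lay at a median of -0.03 in this difference, with 1 of 18 members called, and the comet and cup list at -0.12, with none of 13 called by limma and 2 at an unadjusted p under 0.05. The testis mitochondrial paralogs had none of 15 called by limma and 1 at an unadjusted p under 0.05. These transcripts were dim in both mutants, which limits what a difference between them could show. The general proteasome subunits, bright in both mutants, had 1 of 25 called. The hub, JAK-STAT and cyst lists lay at 2.05, 1.04 and 1.11 (1.56 and 1.03 for the first and second without upd1). Germline and proliferation lists were also above bgcn in part: 19 of 27 piRNA genes, 17 of 32 mitotic, 12 of 24 replication, 12 of 30 nucleolar, 9 of 23 Polycomb and remodelling and 8 of 17 early germline genes were called higher and none lower, at medians of 0.64, 0.53, 0.64, 0.37, 0.39 and 0.64. Below bgcn lay the accessory gland list, at -2.53 with 17 of 20 members called lower, the muscle sheath list, at -0.72 with 11 of 20, the fat body list, at -0.84 with 9 of 18, and the hemocyte and basement membrane list, at -0.30 with 8 of 18.

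**Figure D5:**
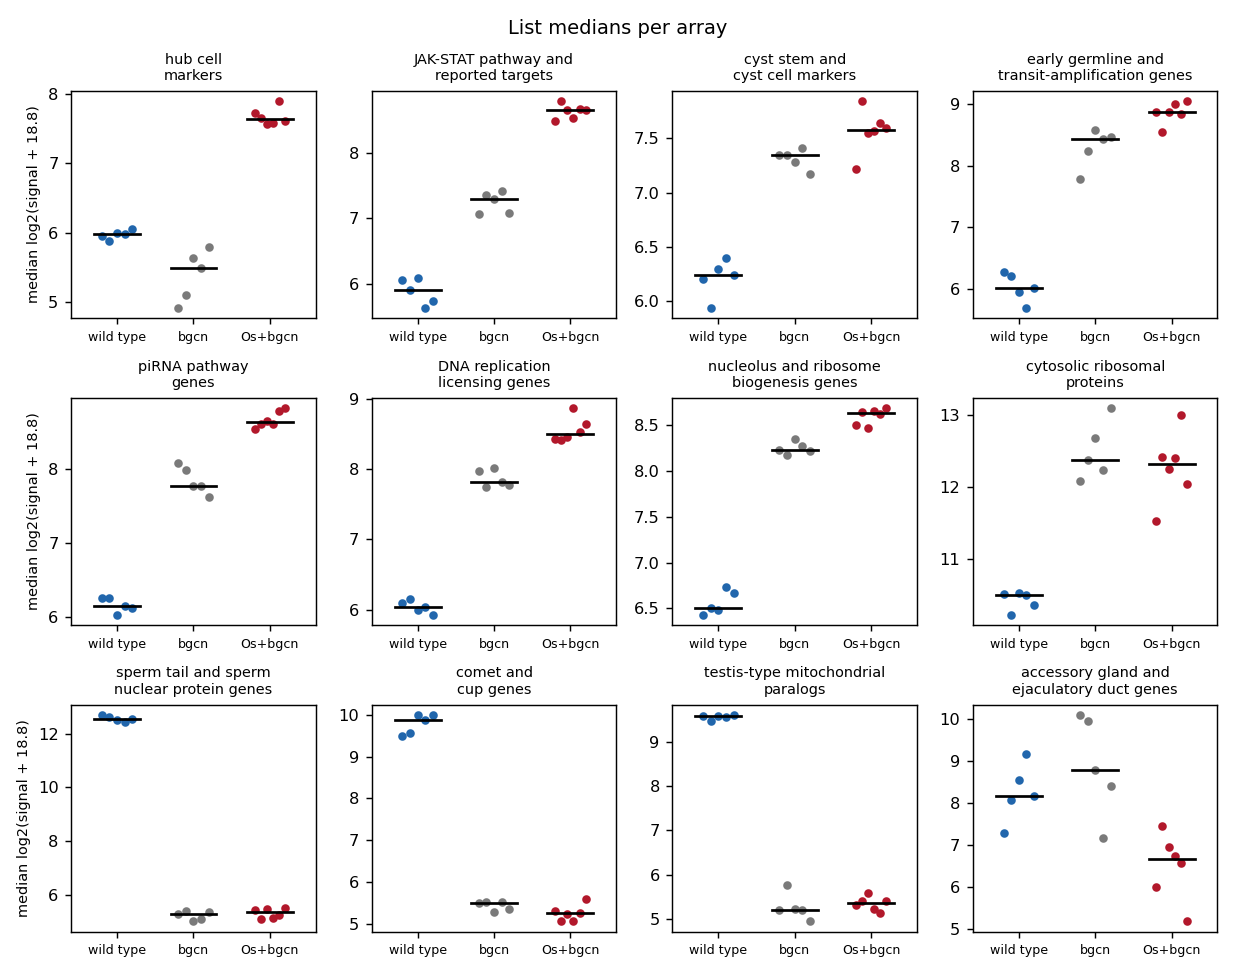
Median log2(signal + 18.8) of the tested members of 12 gene lists (panels) on each array (points) of wild-type, bgcn and Os+bgcn testes, with a bar at the group median. The hub, JAK-STAT, piRNA, replication and nucleolar lists are highest on the Os+bgcn arrays, with no overlap with bgcn. All but the hub list of these, and the early germline list, are higher in both mutants than in wild type, and the sperm lists are high in wild type alone. On an array scale set by the ribosomal protein genes the mutant points lie lower.

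Among genes called against both wild type and bgcn, esg, magu and upd1 were far above both groups. Uhg1, a host gene of small nucleolar RNAs, changed by 2.57 ± 0.22 against wild type and by 3.79 ± 0.22 against bgcn. Hesr changed by 3.03 ± 0.19 against bgcn, ImpL2, which binds and antagonises insulin-like peptides, by 3.24 ± 0.17 against wild type and 2.84 ± 0.17 against bgcn, and bnb by 3.97 ± 0.22 and 2.80 ± 0.22. For Uhg1, Hesr, ImpL2 and bnb the arrays did not overlap in either comparison. scpr-B, which encodes a cysteine-rich secreted protein, was higher than in bgcn by 4.59 ± 0.30 but lower than in wild type, at -1.71 ± 0.30, and its other probe set gave 0.30 and -0.14 with adjusted p of 0.48 and 0.66. Below both groups lay ana, a glycoprotein that glia secrete, at -1.90 ± 0.15 against wild type and -2.99 ± 0.15 against bgcn, the serpin Spn43Aa at -2.41 ± 0.19 and -2.80 ± 0.19, and Mst57Da, an accessory gland gene, at -3.89 ± 0.51 and -3.07 ± 0.51.

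The changed genes were spread over all chromosome arms. On the X chromosome 45.6% of 1422 tested genes were higher and 23.9% lower, and on the 4 large autosome arms 46.0 to 48.8% were higher and 24.9 to 28.7% lower. Chromosome 4 stood apart in these shares: of its 40 tested genes 30 (75.0%) were higher and 3 (7.5%) lower, at a median of 1.23. Of the 837 genes at least 8-fold lower, 334 (39.9%) had a neighbouring tested gene that was also at least 8-fold lower, where 17.4% of all tested genes had such a neighbour. For the genes at least 8-fold higher the shares were 7.02% and 5.21%. The longest run of adjoining lower genes held 6 genes on arm 3R, CG31391, CG14684, CG14689, CG4073, tomboy20 and CG14691; this run was picked for its length after its values were seen.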

How the data were processed

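RNA of whole testes had been hybridised to 16 Affymetrix DrosGenome1 arrays. What the authors deposited is 1 intensity value per probe set and array. Per the submitters' processing notes it comes from MAS5, with no version named. The values are linear, and their trimmed means are alike on all arrays. Detection calls were not used here. The number of arrays limits the precision.

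Samples were grouped by title. Of 13966 probe sets, 12443 carry 1 gene symbol, 327 several and 1196 none in the platform's gene table, and symbols, chromosome arms and neighbours come from RefSeq's gene table of the assembly Release 6 plus ISO1 MT. A gene was represented by the tested probe set of highest mean log2 value. Values were transformed to log2(signal + 18.8), the pooled 25th percentile, and a probe set was tested if 5 or more arrays exceeded 42.9, the 40th percentile of all values. A limma model (version 3.58.1, R 4.3.3) with a term for each of the 3 groups and an intensity trend used all 16 arrays, and p-values were adjusted by Benjamini-Hochberg over the tested probe sets, with a threshold of 0.05. The procedure was tested on simulated data in which few probe sets changed. Most changed here, so that test does not cover changes this wide or the effect of scaling. Errors with ± are standard errors of log2 changes and standard deviations of signals. Counts above the floor were compared by an exact permutation test over arrays. Python 3.11.15 with scipy 1.17.1, pandas 2.3.3 and matplotlib 3.10.9 made the tables and plots.

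The gene lists, pairs, tests and naming rule were chosen with earlier results of these data known. Named are bgcn and upd1, the 12 largest changes in each direction against wild type and the 8 against bgcn among genes called without overlap of arrays and with a name beyond a CG or CR number, up to 3 called members of each list and direction, cell type markers and the paralog pairs. The text names a part of these, and bam, bel, dome, crq, Nplp2 and the run of 6 neighbours were picked after their values were seen. Pseudocount, filter, scaling, arrays in the fit, error model, replicate block, single arrays left out and other probe sets were varied.

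Replicate numbers do not pair the samples: deviations from the group means of same-numbered Os+bgcn and wild-type arrays correlated at -0.039 to 0.049. Neither genome sequence nor promoters were used here.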

Additional observations from a re-analysis of the deposited data

Results flagged for a closer look

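Of 328 groups of arrays looked at, one for each named gene or list in wild type and in Os+bgcn, 17 held a highest or lowest array that stood apart from the others by Dixon's criterion, where chance alone gives about 1 in 20. They were spread over 10 of the 11 arrays, and 5 arrays held more than 1. Signals are given with the range of the other arrays of the group.

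In Os+bgcn, array 3 was highest for SMC2 at 704.5 (others 464 to 524), for fzo at 28.4 (3.2 to 8.4) and for tef at 122.8 (76.9 to 88.2). Array 6 was lowest for eya at 51.3 (95.5 to 123), for Trf5 at 382.7 (599 to 745) and for the median of the general proteasome subunits, at 9.77 on the log2 scale (9.92 to 9.97). Array 5 was highest for ATPsynbeta at 700.3 (566 to 611) and for ATPsynCF6L at 32.9 (5.7 to 11.3). Array 4 was highest for Hsp60B at 44.8 (5.2 to 12.7) and lowest for tomb at 24.2 (60.3 to 94.5), and array 2 was highest for zfh1 at 579.7 (349 to 417).

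In wild type, array 4 was highest for Taf6 at 113.2 (others 38.8 to 52.8) and lowest for bel at 709.3 (914 to 946). Array 5 was lowest for FASN1 at 68.2 (98.0 to 108), array 2 for Tektin-C at 281.3 (430.0 to 505), array 1 for fng at 12.6 (44.0 to 60.2) and array 3 for mod at 41.9 (66.0 to 74.6).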

How the results depend on the processing

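The count of probe sets changed between Os+bgcn and wild type, 7446, was 7322 with quantile normalization, 7262 with median centring, 8018 without a filter, 6115 with a floor at the 60th percentile and 7308 with the replicate block, and 7258 to 7569 without single arrays. Between Os+bgcn and bgcn it was 2141, 1749 with the replicate block and 1700 to 2130 without single arrays. Of these counts of changed probe sets, only centring on the ribosomal protein genes moved one by over 1.5 times, to 636 higher and 7286 lower against wild type and to 1090 changed between both mutants. By construction that scaling subtracts the rise of these genes from every other. With it the direction of 13 called genes turned: COX4 to -0.24, CadN to -1.23, Hsp60A to -1.27, Nplp2 to -0.79, Pglym78 to -0.11, Prosalpha6 to -0.16, Ran to -0.81, Rpt4 to -0.27, Taf6 to -0.04, bt to -1.15, crq to -0.50, dome to -0.22 and tj to -0.01. Of these, CadN, Hsp60A, Nplp2, Ran and bt were called in the turned direction. COX4, Pglym78, Prosalpha6, Rpt4, Taf6, crq, dome and tj were not called on that scale (limma adjusted p from 0.17 to 0.98). Over 130 named genes and all settings, 3374 comparisons were made. In 3310 direction and call were kept, 24 kept the direction but lost the call, and 27 gained a call. The other 13 turned, whether or not they were still called, and 94 genes kept direction and call throughout. Of 12 other probe sets of these genes, 8 gave the same call. The difference in probe sets above the floor was 481, 213 (exact permutation p = 0.017) with the floor at the 30th percentile and 820 at the 60th, and 450 to 525 without single arrays. Other scalings of the arrays were not tried for this count. Signal near the floor limits what can be said of sperm genes in the mutants. The planned shares of promoters with a motif were not run.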

Other observations

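Some genes were read by several probe sets, which can lie in different transcripts of a gene, and not all of these agreed in direction. Of 660 genes with more than 1 tested probe set, 313 had at least 2 called by limma between Os+bgcn and wild type, and 23 of these (7.35%) had probe sets called in opposite directions. In orb, an RNA-binding protein of the germline with several transcripts, both changes were at least 4-fold: one probe set rose by 3.83 ± 0.22 (adjusted p = 4.4e-12), from 13.7 ± 13.9 (SD, n = 5) in wild type to 417 ± 41.6 (n = 6) in Os+bgcn. The other, from 227 ± 30.8 to 29.4 ± 14.9, fell by 2.41 ± 0.24 (adjusted p = 1.5e-08). It was the only gene of the 23 with both changes of that size.

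SmD2, a core protein of the spliceosome, changed by 2.82 ± 0.12 (adjusted p = 2.2e-14) on one probe set and by -1.41 ± 0.27 (adjusted p = 9.8e-05) on the other. siz, an exchange factor of Arf GTPases, changed by 1.46 ± 0.15 (adjusted p = 4.5e-08) and by -2.20 ± 0.32 (adjusted p = 3.5e-06). orb, siz and SmD2 were picked after their values were seen, as the 3 genes of the 23 whose smaller change was largest. Which transcripts the probe sets read was not analysed here. A change given in the report for 1 probe set may therefore not hold for every transcript of its gene.

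Among the 8565 tested genes, those above the floor of 42.9 in wild type alone or in the mutants alone were counted. 590 genes were above it on all 5 wild-type arrays and on none of the 11 mutant arrays, and 855 were above it on at least 5 mutant arrays and on no wild-type array. These rules are unlike, since any 5 of the 11 arrays of both mutants sufficed for the 855, so the counts cannot be compared. A gene above the floor in bgcn testes without Os alone can be among the 855.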
